A study of Mus musculus with 12 samples.

Results

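The comparison set cerebral microvessels of mice without Notch3 against those of littermate controls. It was taken from the sample titles and used 6 of the 12 arrays of the series: 3 from Notch3 knockout mice and 3 from wild-type controls, each from a separate mouse. All mice were on the C57BL/6 strain and 2 months old. The material was microvascular fragments of the cerebrum, whose RNA was amplified and hybridised to Affymetrix Mouse Genome 430 2.0 arrays. The other 6 arrays held cerebellar fragments and entered the fit, so that all groups shared 1 estimate of the spread. The labels do not say how the Notch3 allele was made or how the fragments were isolated.

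Notch3 is a cell surface receptor made mainly by the mural cells of vessels, the smooth muscle cells of arteries and arterioles and the pericytes of capillaries. When a ligand such as Jagged1 on a neighbouring cell engages it, the receptor is cleaved and its intracellular domain enters the nucleus, binds the DNA-binding protein RBPJ and switches on genes of the Hes and Hey families. In cerebral arteries this signal is known to support the maturation and upkeep of smooth muscle, and mutations of human NOTCH3 cause an inherited disease of small cerebral vessels.

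Values are log2 expression per probe set, so a difference of 1 is a doubling, and the median of all values, 3.27, marks the level near which a probe set cannot be told from background. Across the 11716 tested genes the cerebral arrays correlated with r from 0.991 to 0.996 within a group and from 0.983 to 0.988 between the groups. Array medians lay between 3.24 and 3.29. Xist, a female transcript, was near background in control 3 and knockout 2 and high in the other 4 arrays, so the groups had the same mix.

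The fragments carried the genes of vessel cells. Endothelial Cldn5, a tight junction protein, read 14.82 to 14.93 on the 6 arrays, and Tek, an angiopoietin receptor, read 14.46 to 14.61. The mural markers Rgs5, a regulator of G protein signalling, and Pdgfrb, the receptor for platelet-derived growth factor B, read 15.32 to 15.39 and 13.32 to 13.95. Other cells left RNA in the preparation too. Csf1r, a receptor of microglia, read 13.91 to 14.45, the myelin gene Mbp 12.01 to 13.98 and the choroid plexus gene Ttr 16.07 to 16.24. The neuronal gene Tubb3, the astrocyte gene Gfap and the myelin gene Mog did not pass the filter on low values.

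Of the 11716 genes, 748 had an adjusted p under 0.05, or 6.38% of those tested, and are said below to be called. Of these, 287 (2.45%) were higher and 461 (3.93%) were lower in knockout vessels, so 61.6% of the calls were falls. Counts of called members in the gene lists below are to be read against these shares. Counts at an unadjusted p under 0.05 are given without a share over all tested genes, so they only describe the list. In all 748 the values of 1 group lay wholly above those of the other; among all tested genes 2854 (24.4%) had such groups, 1179 (10.1%) with the knockout higher and 1675 (14.3%) with it lower. More than 2-fold changes numbered 89 up and 137 down, and more than 4-fold changes 19 up and 33 down. The count of calls moved with single arrays. It was 484 without control 1, 450 without knockout 1, 439 without knockout 3 and 870 without knockout 2. The share of falls moved with single arrays too, from 49.3% without knockout 2 (441 higher and 429 lower) to 72.5% without control 2. It also moved with the scaling, and was 52.0% after quantile normalisation and 51.0% with arrays centred on the median of the tested genes. When only the 6 cerebral arrays were fitted, the share was 77.1%.

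**Figure D1:**
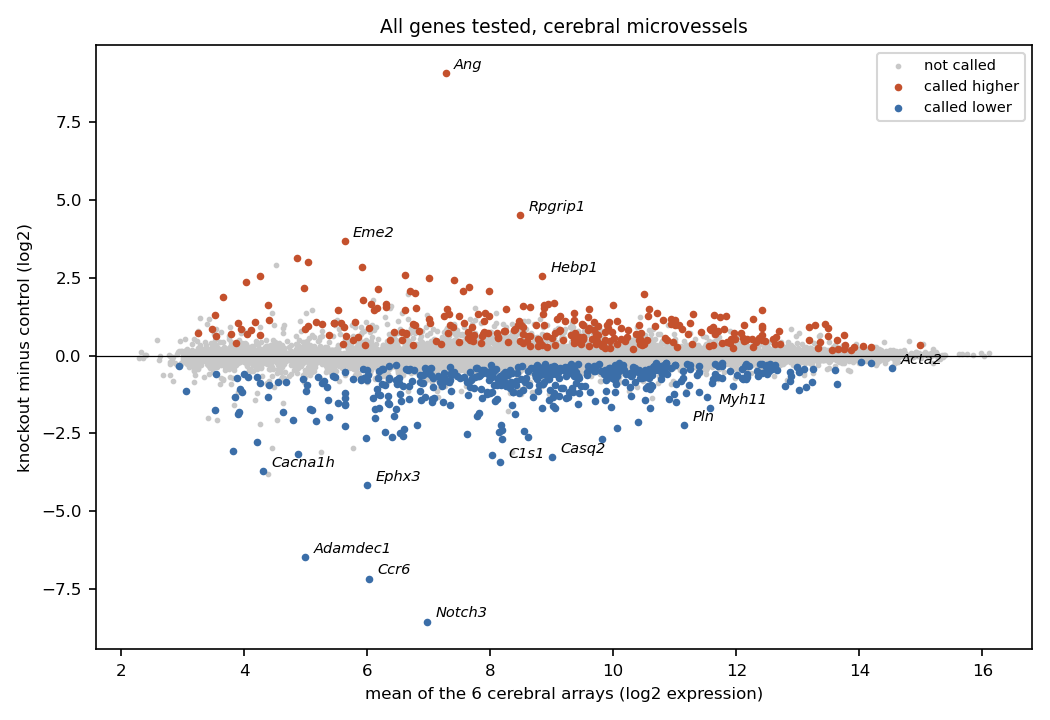
Knockout minus control log2 difference (vertical axis) against the mean of the 6 cerebral arrays (horizontal axis, log2 expression) for the 11716 tested genes; red and blue points are genes called higher and lower, and grey points were not called. Ang at the top and Notch3, Ccr6 and Adamdec1 at the bottom lie furthest from 0.

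Notch3 itself was the first check of the labels. Its brighter probe set read 11.32, 11.61 and 10.84 in controls 1 to 3 and 2.48, 2.48 and 3.15 in knockouts 1 to 3. Its other probe set read 7.27, 7.82 and 6.74 in controls and 3.18, 3.29 and 2.37 in knockouts. All knockout values lay near background and far under every control value, so the arrays matched their labels. The brighter probe set changed by -8.55 (SE 0.29, adjusted p = 9.94e-08 by limma over 3 arrays in each group), at least 253-fold lower when knockout values under the median of all values were raised to it.

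The other receptors of the family were not called. Notch1 ranged from 12.78 to 12.93 among controls and from 12.66 to 12.71 among knockouts, a log2 change of -0.16 (adjusted p = 0.282). Notch2 and Notch4 had changes of 0.21 (adjusted p = 0.572) and 0.17 (adjusted p = 0.30), and Rbpj, the gene of the nuclear partner of all Notch receptors, one of -0.06 (adjusted p = 0.619). Among the ligands, Jag1 was at -0.35 (adjusted p = 0.207), with groups that did not overlap. Dll4, a ligand of arterial endothelium, read 8.94, 8.68 and 9.32 in controls and 8.18, 7.49 and 8.13 in knockouts; the groups did not overlap, but the change of -1.05 (SE 0.29, adjusted p = 0.0623) missed the threshold. Of 31 tested receptors, ligands and modifiers, 2 rose and 2 fell. Notch3 and Dtx3, a Deltex family member, fell, the latter by 0.54 on the log2 scale, while Dtx4 of the same family and Numb, which restrains the receptor, rose by 0.92 and 0.35. The calls of Dtx4 and Numb were each lost without control 2, control 3 or knockout 1, that of Dtx4 also without control 1 or knockout 3, and that of Dtx3 without knockout 1. The list's median change was -0.01, and so was that over all genes.

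Downstream of the receptor, 3 of the classical targets fell and others were not called. Hey2, a transcriptional repressor of the Hey family, read 10.31, 10.69 and 10.33 in controls and 9.28, 9.42 and 9.23 in knockouts. Its groups were well apart, and it fell by 1.13 (SE 0.12, adjusted p = 0.000265). Nrarp, a feedback inhibitor of Notch signalling, read 11.13, 10.96 and 11.33 against 10.20, 9.76 and 10.23 and fell by 1.07 (SE 0.18, adjusted p = 0.0069). Heyl, the Hey member best known from mural cells, read 8.68, 8.95 and 9.0 against 8.19, 8.06 and 8.16, a log2 change of -0.74 (SE 0.16, adjusted p = 0.0253); without control 1 it stayed called, and without any other single array it did not. Hes1 and Hey1 were not called. Hes1 overlapped between the groups, with a change of -0.15 (adjusted p = 0.727), and Hey1 had a small positive change of 0.14 (adjusted p = 0.461).

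The largest falls in the target list were in Grip2, a scaffold protein, and Nrip2, a nuclear receptor interacting protein. Grip2 read 9.33, 9.74 and 9.11 in controls and 7.05, 6.95 and 7.01 in knockouts. Nrip2 read 11.25, 11.58 and 10.88 against 8.68, 9.07 and 8.94. In both genes every control lay more than 1 log2 unit above every knockout, with changes of -2.39 (SE 0.18) and -2.34 (SE 0.15). Grip2 and Nrip2, like Susd5, Ldb3 and Casq2, may have entered the lists through earlier work on Notch3-less vessels, perhaps with these very samples, so they are not independent evidence of a direction. In all, 5 of 18 tested effectors fell and 1, the transcription factor gene Gata2, rose (0.41), with a median of -0.01; the rise of Gata2 was called without control 2 and lost without any other single array.

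The promoter windows of these genes are shown for Hey2, whose window holds the letters of the core RBPJ site. A window runs from 250 bases before to 50 after a gene's start on the gene's own strand, from RefSeq on GRCm38.p6. The core was searched as TGGGAA on both strands; 25.6% of the 32851 promoters in the table hold it. It is in capitals in the window chr10:30842734-30843033 (minus strand), where the copies begin 207 and 3 bases before the start.
Hey2: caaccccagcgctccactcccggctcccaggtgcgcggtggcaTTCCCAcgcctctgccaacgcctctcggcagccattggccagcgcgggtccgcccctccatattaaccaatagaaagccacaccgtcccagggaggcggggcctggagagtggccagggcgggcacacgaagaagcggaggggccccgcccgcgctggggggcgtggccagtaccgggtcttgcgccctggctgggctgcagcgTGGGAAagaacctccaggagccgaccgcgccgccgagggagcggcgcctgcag
The windows of Nrarp, Grip2 and Notch3 did not hold these letters. Among genes called lower 31.2% of 333 with a promoter in the table held the core, against 25.1% of 231 called higher and 26.7% of 9498 tested genes with one. Within the effector list 1 of 3 members called lower held it, against 2 of 6 others. In the contractile, actin anchoring and pericyte lists described below these counts were 2 of 9 against 2 of 9, 4 of 10 against 8 of 14, and 5 of 13 against 7 of 14. The differences between these shares were not tested.

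The proteins of the contractile apparatus form the actin and myosin filaments by which an arteriole narrows. Of 21 tested members 11 fell and 0 rose, against 3.93% called lower and 2.45% called higher over all tested genes. The median was -0.45 against -0.01 over all genes, and 14 members had an unadjusted p under 0.05. Without control 2 or knockout 1 the count of called falls was 7. In a bulk preparation fewer smooth muscle cells and less of these transcripts per cell cannot be told apart.

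Myh11, the smooth muscle myosin heavy chain, read 12.24, 12.64 and 12.40 in controls and 10.71, 10.73 and 10.76 in knockouts. The 3 knockout arrays nearly coincided and lay far under the controls, a log2 change of -1.70 (SE 0.16, adjusted p = 0.000119). Cnn1, calponin, which restrains the myosin motor, read 7.88, 8.10 and 7.78 against 5.53, 5.21 and 6.34. Its groups did not overlap, but knockout 3 stood above the other knockouts, and the log2 change of -2.22 had a wide error (SE 0.49, adjusted p = 0.0248); its call held without knockout 3 and was lost without any other single array. Lmod1, an actin filament nucleator, and the tropomyosin gene Tpm2 fell (-1.38 and -1.10). Myl9, the regulatory light chain that is phosphorylated to start contraction, read 13.51, 13.77 and 13.61 against 12.37, 12.66 and 12.83, a log2 change of -1.01 (SE 0.12). Mylk, the kinase that phosphorylates it, fell by 0.53.

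The most used smooth muscle marker moved by less than these. Acta2, smooth muscle actin, read 14.69, 14.77 and 14.72 in controls and 14.29, 14.28 and 14.44 in knockouts. The groups did not overlap, and the log2 change was -0.39 (SE 0.06, adjusted p = 0.00437). Caldesmon (Cald1) fell by 0.23 and calponin 2 (Cnn2) by 0.26. Cald1 lost its call without control 1, control 2, knockout 1 or knockout 3, and Cnn2 without any single array. Desmin (Des, -0.45, adjusted p = 0.0805) and smoothelin (Smtn, -0.33, adjusted p = 0.256) were not called.

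Of the proteins that anchor actin to dense bodies and to the membrane, 12 of 29 tested fell, with a median of -0.35; 1, the LIM protein gene Fhl2, rose by 0.48, a call kept without control 3 and lost without any other single array. Synpo2l, a synaptopodin relative of the Z-disc, read 5.29, 5.84 and 4.94 in controls and 2.42, 2.24 and 2.18 in knockouts, which is background, at least 4.25-fold lower. Ldb3, a Z-disc protein that binds actinin, read 7.38, 8.04 and 7.14 against 5.25, 5.31 and 4.57, a log2 change of -2.47 (SE 0.37, adjusted p = 0.00334). Palladin (Palld, -1.32), the actinin-binding Pdlim3 (-1.12), Synpo2 (-1.05) and the filament protein nexilin (Nexn, -0.95) fell too. Filamin A (Flna), the actin crosslinker, fell by 0.71 and dystrophin (Dmd), which ties actin to the basement membrane receptor, by 0.61; the call of Dmd was lost without control 1, control 2, knockout 1 or knockout 3. Integrin alpha 7 (Itga7), a laminin receptor of muscle, read 9.16, 9.38 and 8.88 against 7.51, 7.52 and 7.64. It was the 1 called integrin of 18 tested, close to the 6.38% called over all tested genes. Without knockout 1 there were 2.

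**Figure D2:**
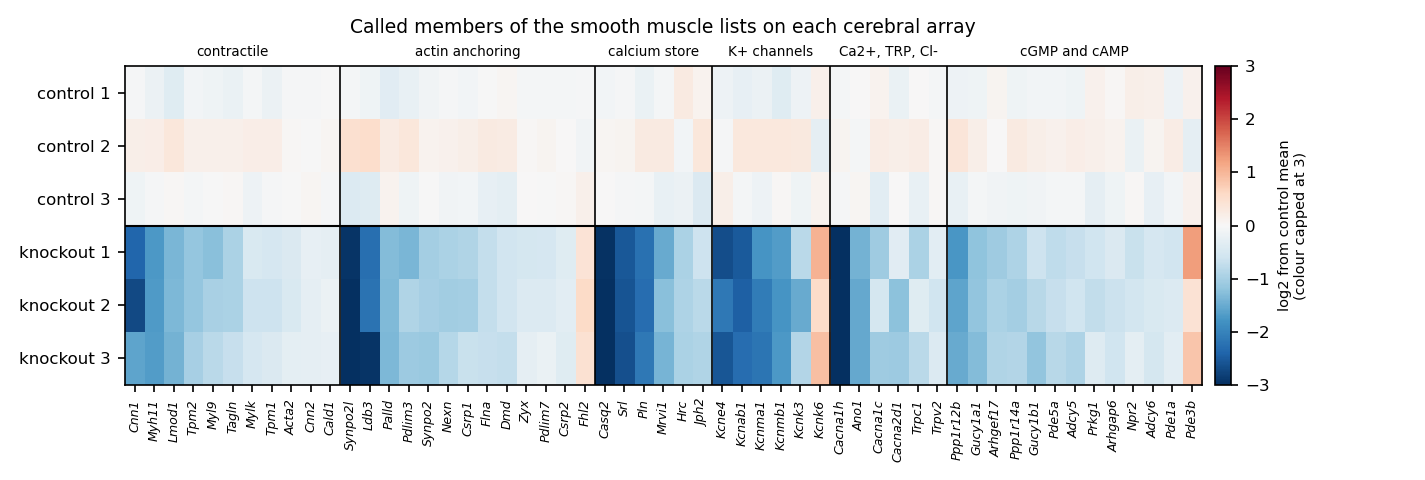
Each column is a called gene of the lists of smooth muscle function, named under the axis and grouped by role; each row is 1 cerebral array, and the colour is the log2 level minus the mean of the 3 controls, capped at 3 in either direction. The 3 knockout rows are blue in nearly every column, with Fhl2, Kcnk6 and Pde3b in red, while the control rows stay pale.

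The CArG box, to which serum response factor binds with its partner myocardin at many smooth muscle genes, was searched in the same windows. The pattern was CCWWWWWWGG, where W is A or T, which reads the same on both strands, and no mismatch was allowed. Among 333 genes called lower with a promoter in the table, 12 (3.60%) held it, among 231 called higher 1.73%, and among 9498 tested genes 1.58%. The 12 included Myl9 and Cnn2 of the contractile list and Ldb3 and Dmd of the anchoring list. Members that were not called lower held it too, 3 of 14 with a promoter in the anchoring list against 2 of 10 called lower, and 1 of 9 in the contractile list against 2 of 9. Their windows are printed with the match in capitals. They are chr2:156775214-156775513 (plus strand) for Myl9, chr10:79988350-79988649 (plus strand) for Cnn2, chr14:34588558-34588857 (minus strand) for Ldb3 and chrX:82948620-82948919 (plus strand) for Dmd.
Myl9: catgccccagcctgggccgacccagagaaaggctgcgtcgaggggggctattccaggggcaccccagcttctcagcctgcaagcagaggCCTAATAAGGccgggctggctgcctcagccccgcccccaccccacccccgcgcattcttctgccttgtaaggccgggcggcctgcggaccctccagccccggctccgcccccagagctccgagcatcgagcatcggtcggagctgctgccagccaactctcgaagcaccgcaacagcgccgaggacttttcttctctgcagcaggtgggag
Cnn2: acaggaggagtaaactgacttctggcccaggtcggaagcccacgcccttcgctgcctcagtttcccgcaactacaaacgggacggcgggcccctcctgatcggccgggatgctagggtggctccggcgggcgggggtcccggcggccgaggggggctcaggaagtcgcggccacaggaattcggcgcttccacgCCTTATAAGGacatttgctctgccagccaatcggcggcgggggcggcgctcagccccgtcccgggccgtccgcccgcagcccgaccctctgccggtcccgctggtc
Ldb3: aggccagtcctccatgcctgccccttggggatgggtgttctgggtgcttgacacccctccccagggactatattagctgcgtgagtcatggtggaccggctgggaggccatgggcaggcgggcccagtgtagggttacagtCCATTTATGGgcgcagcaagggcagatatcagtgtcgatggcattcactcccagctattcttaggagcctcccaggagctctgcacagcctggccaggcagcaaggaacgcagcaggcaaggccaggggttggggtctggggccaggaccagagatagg
Dmd: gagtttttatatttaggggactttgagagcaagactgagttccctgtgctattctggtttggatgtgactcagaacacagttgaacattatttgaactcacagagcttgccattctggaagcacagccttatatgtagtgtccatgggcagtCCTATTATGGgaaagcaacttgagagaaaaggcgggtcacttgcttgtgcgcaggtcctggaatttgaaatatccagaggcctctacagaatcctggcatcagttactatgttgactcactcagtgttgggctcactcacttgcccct
The matches begin 161, 56, 109 and 98 bases before the start. The windows of Cnn1, Acta2, Lmod1, Tpm2, Casq2, Pln, Kcnmb1, Synpo2 and Flna and the other window of Dmd held no exact match to the pattern. Sites with a mismatch were not searched for, so these windows may hold such sites. The muscle genes Asb5, Asb2 and Myom1, chosen after their values were seen because they share the pattern, fell (-2.08, -1.44 and -1.49).

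The calcium store, from which smooth muscle releases the calcium that starts contraction or, through sparks, ends it, had its largest falls in calcium-binding proteins. Casq2, calsequestrin, which holds calcium in the store, read 10.57, 10.69 and 10.65 in controls and 7.68, 7.53 and 6.93 in knockouts, a log2 change of -3.26 (SE 0.19, adjusted p = 5.69e-06). Srl, sarcalumenin, a further calcium-binding protein of the store, read 7.84, 7.96 and 7.84 against 5.33, 5.29 and 5.24, a log2 change of -2.59 (SE 0.20). Pln, phospholamban, the brake on the calcium pump, read 12.07, 12.53 and 12.21 against 10.02, 9.98 and 10.12, a log2 change of -2.23 (SE 0.17). In each of these the groups were more than 1 log2 unit apart at their nearest values.

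The calcium-binding Hrc and the junction protein Jph2 fell by 0.94 and 0.77, the latter a call that held without control 3 and was lost without any other single array. Atp2a2, the pump itself, had a change of -0.05 (adjusted p = 0.738) by its brightest probe set and fell by 0.36 (adjusted p = 0.015) by the mean of its probe sets. Ryr2, a calcium release channel, lay close to background and was not called. Of 21 tested genes 6 fell and 0 rose (8 at an unadjusted p under 0.05), and the list's median was -0.05.

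Among potassium channels both subunits of a main smooth muscle channel fell. Kcnma1, which forms the pore of the BK channel opened by calcium, read 6.96, 7.45 and 6.99 in controls and 5.37, 5.04 and 4.94 in knockouts, a log2 change of -2.02 (SE 0.17). Its smooth muscle subunit Kcnmb1 read 5.57, 6.26 and 5.98 against 4.26, 4.16 and 4.22, a log2 change of -1.72 (SE 0.21). The accessory subunits Kcne4 and Kcnab1 fell (-2.46 and -2.43), and so did the background channel Kcnk3 (-1.07), a call lost without any single array.

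Another background channel, Kcnk6, rose by 0.83, and in all 5 of 20 potassium channel genes fell and 1 rose (2 without knockout 2). Kcnj8 and Abcc9, which together form the ATP-sensitive channel of pericytes, were not called. Kcnj8 ranged from 10.41 to 10.62 among controls and from 10.33 to 10.57 among knockouts, and Abcc9 read 12.32 to 12.49 and 12.34 to 12.53, so both pairs of ranges overlapped.

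Among calcium and chloride channels 6 of 19 fell and 0 rose (11 at an unadjusted p under 0.05). Ano1, the chloride channel that calcium opens and that depolarises smooth muscle, read 11.78, 11.71 and 11.83 in controls and 10.35, 10.24 and 10.24 in knockouts. The arrays of each group nearly coincided, and the log2 change was -1.5 (SE 0.07, adjusted p = 9.32e-07). Cacna1h, a T-type calcium channel, read 6.11, 6.26 and 6.14 against 2.46, 2.46 and 2.45, at least 7.47-fold lower. Its gene lies within 20 Mb of Notch3 on chromosome 17, and the part of this place in the result was not tested. Cacna1c, the pore of the L-type channel through which vessels take up calcium, fell by 0.89, as did its subunit Cacna2d1. Trpc1 and Trpv2 fell by 0.71 and 0.44. The call of Cacna1c was lost without knockout 1 or knockout 3, that of Trpc1 without control 1, control 2, knockout 1 or knockout 3, and that of Cacna2d1 without any single array other than knockout 1. Without knockout 3 the count was 3.

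Receptors for vasoactive signals fell in 8 of 34 cases and rose in 1, with a median of -0.03. Htr1b, the serotonin receptor through which triptans narrow cranial arteries, read 7.62, 8.19 and 7.35 in controls and 5.20, 4.81 and 5.27 in knockouts, a log2 change of -2.63 (SE 0.24, adjusted p = 0.000135). Gpr20, an orphan receptor, read 9.43, 9.96 and 9.23 against 7.08, 6.76 and 6.72, a log2 change of -2.69 (SE 0.26). The lowest control stood more than 2 log2 units above the highest knockout for both. Npy1r, a receptor of the constrictor peptide neuropeptide Y, fell by 1.21, S1pr3, a sphingosine-1-phosphate receptor, by 1.17 and Agtr1a, the receptor of angiotensin II, by 0.64. The purine receptor P2ry2 rose by 0.50, a call kept without control 1 and lost without any other single array. The signal regulators Rgs7bp and Rgs4 fell by 1.22 and 0.66. The count of 8 falls stayed at 8 or 9 whichever array was left out.

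Nitric oxide from the endothelium activates guanylate cyclase in smooth muscle, and cyclic GMP then acts through a kinase that lowers calcium and eases myosin. Gucy1a1, the cyclase's alpha subunit, read 11.47, 11.79 and 11.55 in controls and 10.40, 10.42 and 10.30 in knockouts, a log2 change of -1.23 (SE 0.09, adjusted p = 3.53e-05). The beta subunit Gucy1b1 fell by 0.87 and Prkg1, the kinase, by 0.58. The call of Gucy1b1 was lost without any single control or knockout 3, and that of Prkg1 without control 1, control 2, knockout 1 or knockout 2. A second probe set of Prkg1 went the other way (0.45, adjusted p = 0.741).

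Mrvi1, the substrate through which that kinase restrains calcium release, fell by 1.39 and Ppp1r12b, a targeting subunit of myosin phosphatase, by 1.61. Pde5a, which breaks cyclic GMP down and is the target of sildenafil, read 11.92, 12.15 and 11.95 against 11.25, 11.32 and 11.16, a log2 change of -0.76 (SE 0.09). Ppp1r14a, the inhibitor of myosin phosphatase, fell by 0.94. Nos3, the endothelial synthase that makes nitric oxide, ranged from 12.54 to 12.69 among controls and from 12.55 to 12.69 among knockouts, with overlapping groups.

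Of 36 tested genes of this pathway and of cyclic AMP relaxation, 13 fell and 1, the phosphodiesterase Pde3b, rose by 0.84, a call lost without control 2, knockout 1 or knockout 3, with a median of -0.27. The count of falls was 8 without control 1, 7 without control 2, 8 without knockout 1 and 8 without knockout 3.

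Pericyte genes fell in 21 of 36 cases and rose in none (29 by unadjusted p under 0.05); the median was -0.71; Notch3 is one of them. Enpep, the aminopeptidase A that trims angiotensin, read 12.15, 12.20 and 12.26 in controls and 10.86, 11.04 and 10.66 in knockouts, a log2 change of -1.35 (SE 0.11). Art3, an ADP-ribosyltransferase family member, read 10.68, 10.53 and 10.51 against 9.07, 9.12 and 9.25, a log2 change of -1.43 (SE 0.08, adjusted p = 5.87e-06). Ndufa4l2, a mitochondrial protein (-1.55), Atp13a5, a transport ATPase (-1.20), Higd1b (-0.97) and the proteoglycan Cspg4, also known as NG2 (-0.91), fell. Pdgfrb read 13.85, 13.95 and 13.74 against 13.43, 13.35 and 13.32, a log2 change of -0.48 (SE 0.07, adjusted p = 0.00396).

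Other pericyte genes did not pass the test. Rgs5 had a change of -0.04 (adjusted p = 0.75) by its brightest probe set and fell by 0.32 (adjusted p = 0.023) by the mean of its probe sets. Vtn, vitronectin, was at -0.15 (adjusted p = 0.183).  The knockout arrays had list medians of -0.68, -0.60 and -0.75 relative to the control means, and the control arrays of -0.01, 0.09 and -0.08, so the groups were well apart.

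Transcription regulators of mural cells fell in 8 of 49 cases and rose in none (20 by unadjusted p under 0.05); the median was -0.20. Tbx2, a T-box repressor, read 8.49, 8.93 and 8.83 in controls and 7.02, 6.80 and 6.61 in knockouts, a log2 change of -1.94 (SE 0.19, adjusted p = 0.000182). Myocd, myocardin, the coactivator that drives smooth muscle genes, read 7.60, 7.78 and 6.76 against 6.15, 5.81 and 5.95, a log2 change of -1.41 (SE 0.23, adjusted p = 0.00547). The gap to the knockouts was narrowest at control 3. The forkhead genes Foxs1 and Foxd1 (-1.44 and -1.18), Tbx18, which marks mural cells from early in development (-0.84), and Prrx1 (-0.64) fell, the last a call lost without control 1, control 2, knockout 1 or knockout 3. Srf, the factor that myocardin joins at CArG boxes, was not called (-0.21, adjusted p = 0.0842), and neither was Foxf2 (-0.33, adjusted p = 0.122). Without knockout 3 the count was 5.

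**Figure D3:**
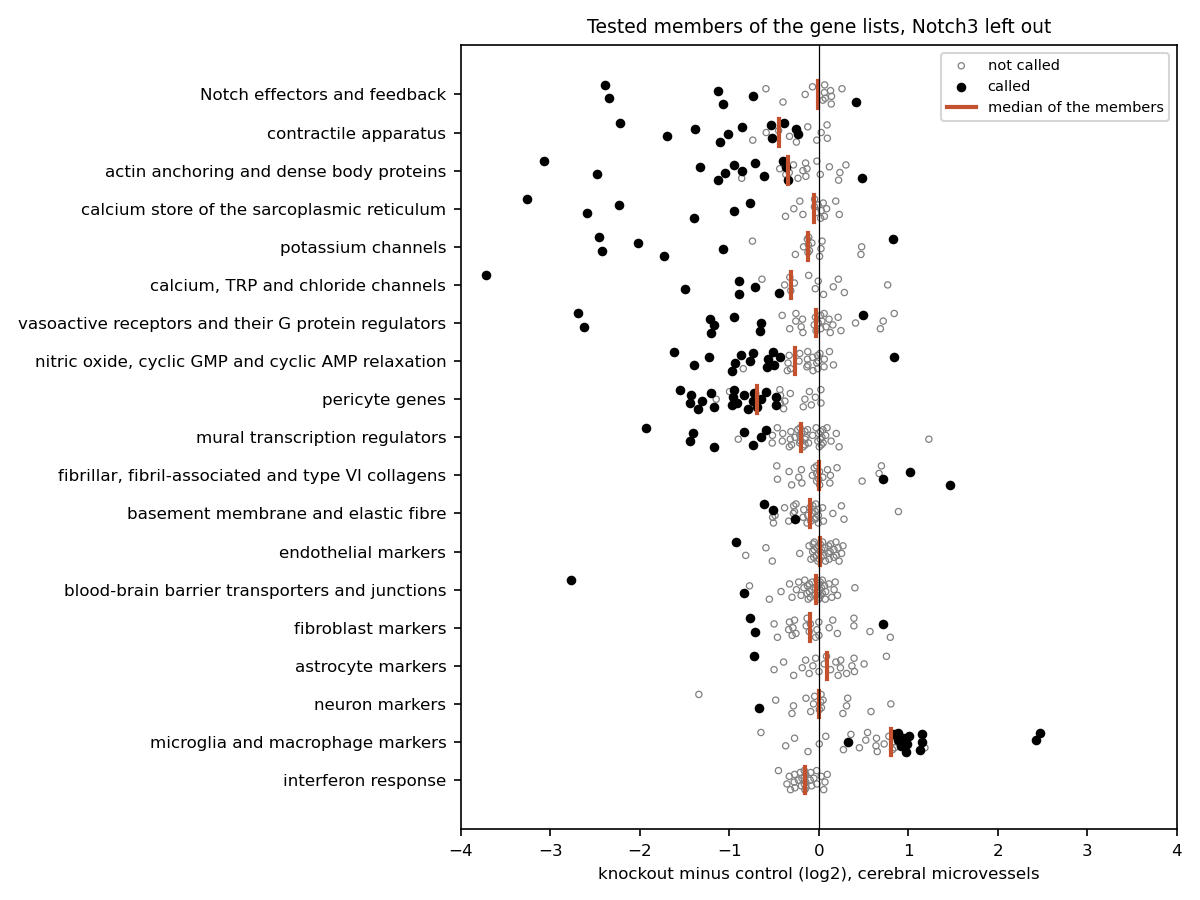
Each point is a tested gene of the list named on the left and its position the knockout minus control log2 difference; filled points were called, open points were not, and the red bar is the median of the list, with Notch3 itself left out. Called members of the Notch effector and mural lists lie mostly to the left, with Gata2, Fhl2, Kcnk6, P2ry2 and Pde3b to the right. Those of the microglia list lie to the right, while the endothelial list is centred near 0.

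Signals between endothelial and mural cells were called in both directions. Pgf, placental growth factor, read 7.57, 7.95 and 7.77 in controls and 6.5, 6.62 and 6.07 in knockouts, a log2 change of -1.37 (SE 0.15). Fgf1 fell by 1.32 and Angpt1, the mural ligand of the Tek receptor, by 0.79. Pdgfb, the endothelial ligand of Pdgfrb, rose by 0.31, a call lost without control 1, control 2, knockout 2 or knockout 3. Of 33 tested genes of this signalling 5 fell and 1 rose, against 3.93% called lower and 2.45% called higher over all tested genes. In TGF-beta and BMP signalling 5 of 37 fell, among them Tgfb3 (-0.98) and the activin subunit gene Inhbb (-0.99), and 1, the receptor gene Tgfbr1, rose by 0.64, a call lost without control 2, knockout 1 or knockout 3. The call of Inhbb was lost without knockout 1. That count of 5 falls was 3 without control 1, 2 without knockout 1 and 3 without knockout 3. Among 33 guidance genes 4 fell, among them the cue netrin 4 (Ntn4) by 0.74 and the plexin gene Plxnb1 by 0.75, and 1, Efnb1, rose; 2 fell without control 1, knockout 2 or knockout 3, and Efnb1 was lost without any single array. Among 31 Wnt genes 3 fell, led by the receptor gene Fzd2 (-1.68), and 1, Fgfbp1, rose; 1 fell without any single array other than control 3, and Fgfbp1 was lost without control 1, control 2, knockout 2 or knockout 3. The arterial guidance ligand Efnb2 had a change of -0.59 (adjusted p = 0.0635) and was called without knockout 1.

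The extracellular matrix showed both directions. Col6a1, a chain of type VI collagen, read 5.37, 5.23 and 5.52 in controls and 7.04, 6.71 and 6.76 in knockouts, a rise of 1.46 (SE 0.17, adjusted p = 0.000666). Its partner chain Col6a2 read 6.23, 6.22 and 6.27 against 7.49, 7.10 and 7.19, a rise of 1.02 (SE 0.19), and the fibrillar chain Col3a1 rose by 0.71, a call lost without control 2, control 3, knockout 1 or knockout 3. The groups of all 3 genes were apart, and they were the called members among 26 fibrillar, fibril-associated and type VI collagens. Col1a2 went the other way without a call (-0.46, adjusted p = 0.0538). Of 33 basement membrane and elastic fibre genes 3 fell, pikachurin (Egflam), Col4a5 and dystroglycan (Dag1), by 0.61, 0.51 and 0.27; that count was 1 without control 1, control 2 or knockout 1. The main type IV chains Col4a1 and Col4a2 had changes of -0.09 and -0.12 and were not called. Among 22 genes tied to small vessel disease, Prelp, a matrix proteoglycan, fell by 0.54 and Ctsa, cathepsin A, rose by 0.47; without knockout 1 or knockout 3 neither was called, nor was Prelp without control 1 or control 2.

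Of 39 tested endothelial markers 1, the transcription factor gene Ets1, was called, against 6.38% called over all tested genes. It read 14.07, 14.10 and 14.15 in controls and 13.51, 13.11 and 12.91 in knockouts, a log2 change of -0.92 (SE 0.14, adjusted p = 0.00308), by the brightest of 4 passing probe sets. The others gave -0.90, -2.79 and -3.58, so the direction was shared and the size was not. Without knockout 1 there were 2 calls in the list. Cldn5, Cdh5 and Flt1 had changes of 0.04, 0.11 and -0.11, and the list's median was 0.02. Of 44 transporters and junction genes of the blood-brain barrier 2 fell, against 3.93% called lower over all tested genes, with a list median of -0.03. These were the organic cation transporter Slc22a2, whose gene lies within 20 Mb of Notch3, and the glycine transporter Slc6a9 (-0.84). Slc6a9 lost its call without control 2, control 3, knockout 1 or knockout 2. Slc2a1, the glucose transporter of the barrier, was at 0.07 (adjusted p = 0.537).

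**Figure D4:**
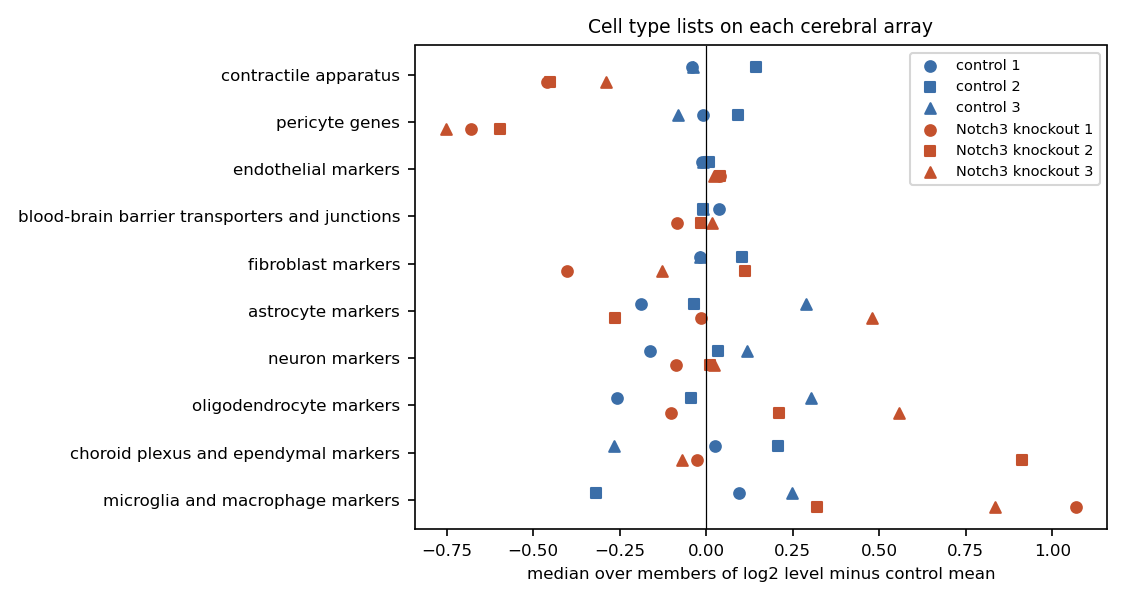
Each point is 1 cerebral array, blue for control and red for knockout with the symbol giving the replicate; its position is the median, over the tested members of the list named on the left, of the log2 level minus the mean of the 3 controls. Knockout arrays lie left of the controls in the contractile and pericyte lists and close to 0 in the endothelial list, and in the microglia list they lie to the right but with array 2 low in both groups.

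Microglia and macrophage markers were higher in knockout fragments in 14 of 34 cases and lower in none (28 by unadjusted p under 0.05); the median was 0.80 and positive changes in 30 of 34. Tmem119, a marker of resident microglia, read 11.77, 11.38 and 11.94 in controls and 13.28, 12.39 and 12.89 in knockouts, a rise of 1.16 (SE 0.23, adjusted p = 0.0151). C1qa, a chain of complement C1q, read 12.93, 12.58 and 13.27 against 14.12, 13.66 and 14.03, a rise of 1.01 (SE 0.21). Array 2 was the lowest of its group for both genes. The call of Tmem119 was lost without control 2 or knockout 3 and that of C1qa without control 1, control 2, knockout 1 or knockout 3. The adhesion protein leupaxin (Lpxn) and the leukocyte receptor Cd84 rose by 2.48 and 2.43, more than the rest of the list. P2ry12, Cx3cr1 and Csf1r, 3 defining genes of microglia, had changes of 0.85, 0.65 and 0.28 with adjusted p = 0.0553, 0.141 and 0.102; P2ry12 was called without knockout 2.

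None of the defining markers was near background, and the summed linear level of the list ran from 150901 to 199268 over the controls and from 221956 to 313861 over the knockouts. The count of 14 moved with single arrays, to 6 without control 1, 3 without control 2, 4 without knockout 1, 23 without knockout 2 and 3 without knockout 3, and it was 1 when only the cerebral arrays were fitted. In cerebellar fragments the list's median change was 0.20. The part of these markers' higher level in the rises of other immune genes was not tested.

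Other immune lists were mixed. Of 17 complement genes C1qa, C1qc and the receptor gene C5ar1 rose, while C1s1, Serping1 and Colec12 fell, the last a call lost without control 2, knockout 1 or knockout 3; the count of 3 rises was 1 without control 1, 0 without control 2, 1 without knockout 1 and 1 without knockout 3. C1s1, the protease of the first complement component, read 9.82, 10.16 and 9.62 in controls and 6.22, 6.93 and 6.18 in knockouts, a log2 change of -3.42 (SE 0.21, adjusted p = 9.56e-06). Its inhibitor Serping1 fell by 0.72. In antigen presentation 3 of 22 rose (5 without knockout 2) and 1 fell. H2-DMa, which loads peptides onto class II molecules, read 5.12, 5.20 and 5.66 against 7.90, 7.54 and 8.33, a rise of 2.60 (SE 0.24), while the class II chain H2-Aa and its chaperone Cd74 were not called (-0.64 and -0.56). Tap1, the peptide transporter, fell by 0.50; of the runs without 1 array only that without knockout 2 kept this call. H2-DMa and Tap1 both lie within 5 Mb of Notch3.

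Of 28 interferon response genes limma called 0, although 1 passed an unadjusted p under 0.05; the median was -0.16. Among chemokines and cytokines Ccl6, Ccl9 and the receptor gene Ifngr1 rose, by 1.67, 1.67 and 0.72, and Ccr6 and Osmr, the oncostatin M receptor gene, fell, in a list of 36; without control 2 the falls were 4. Ccl9 read 8.47, 7.2 and 8.63 in controls and 10.40, 9.27 and 9.64 in knockouts, and its call was lost without control 1, control 2, knockout 1 or knockout 3.

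In each of the astrocyte, neuron, oligodendrocyte and choroid plexus lists, with 23, 19, 10 and 18 tested members, 1 gene fell, namely Atp1b2 (-0.73), Map2 (-0.67), Cspg4 and Rarres2, and none rose; the last 2 also stand in the pericyte list. These counts are close to the 6.38% called over all tested genes. The call of Map2 was kept without knockout 2 and lost without any other single array, and without knockout 3 the astrocyte list had 2 falls. The choroid plexus list had a median of 0.91 relative to the control mean in knockout 2 and of -0.27 to 0.21 in the other 5 arrays, so 1 array stood apart. Of 26 fibroblast markers 2 fell, Slc6a13 and Serping1, and 1, Col3a1, rose; 1 fell without control 1, control 2, knockout 1 or knockout 2. Of 4 sex-linked transcripts limma called 0 (0 at an unadjusted p under 0.05). Limma called 0 of 10 blood cell markers (1 at an unadjusted p under 0.05).

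**Figure D5:**
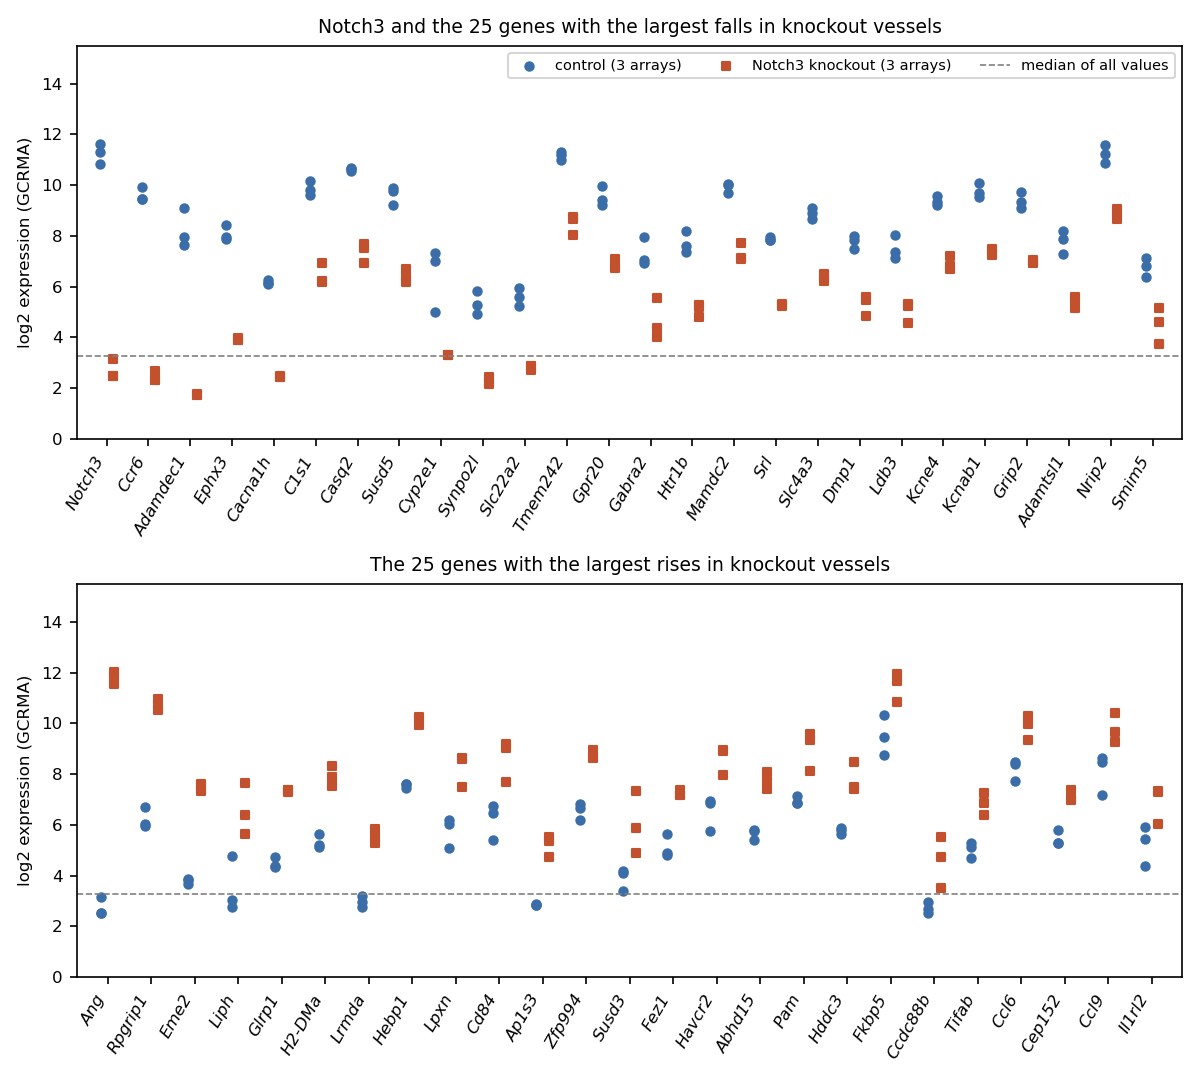
Log2 expression (vertical axis) of Notch3 and the 25 genes with the largest falls (upper panel) and of the 25 genes with the largest rises (lower panel) on each of the 3 control arrays (blue circles) and 3 knockout arrays (red squares); the dashed line is the median of all values, 3.27. Ang, Lrmda, Ap1s3 and Ccdc88b lie under the line in all controls, and Notch3, Ccr6, Adamdec1, Cacna1h, Synpo2l and Slc22a2 lie under it in all knockouts.

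The most extreme changes lay outside the mural lists. Ang, angiogenin, a secreted ribonuclease that acts on vessel growth, read 3.15, 2.53 and 2.53 in controls and 12.02, 11.54 and 11.88 in knockouts. It went from background to a high level, a rise of 9.08 (SE 0.19, adjusted p = 1.48e-09), at least 373-fold. Its other probe sets read 1.45 to 1.49 against 11.90 to 12.28, and 4.73 to 4.91 against 8.48 to 8.61, so all 3 were apart in the same direction.

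The ribonucleases next to it moved the same way by less. Rnase4, whose gene overlaps that of Ang, read 13.21, 12.99 and 13.33 in controls and 13.80, 13.63 and 13.96 in knockouts, a rise of 0.62 (SE 0.10, adjusted p = 0.00592). Rnase6 read 2.84 to 2.90 in controls, at background, and 4.15, 3.67 and 4.72 in knockouts, at least 1.88-fold higher. Of 10 ribonucleases of this family on the array 5 passed the filter, of which 3 rose and 0 fell, against 2.45% called higher over all tested genes. Ang and Rnase6 read under 3.27 in every cerebral control, so the knockout arrays helped them pass the filter. Ang3, Ang4, Rnase1, Rnase2a and Rnase10 stayed near background in both groups and were not tested. The count is therefore no result about the family. Rpgrip1, a protein of the photoreceptor cilium whose gene is also within 5 Mb of Ang, read 6.05, 5.95 and 6.72 against 10.52, 10.96 and 10.75, a rise of 4.51 (SE 0.20).

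Among the falls, Ccr6, a chemokine receptor of lymphocytes, read 9.92, 9.45 and 9.47 in controls and 2.34, 2.66 and 2.33 in knockouts, at least 81.2-fold lower (adjusted p = 5.54e-10). Adamdec1, a secreted metalloprotease, read 9.10, 7.65 and 7.97 against 1.75 on each knockout array, at least 31.3-fold lower. Both went from a clear signal to background in every knockout. Ephx3, an epoxide hydrolase, read 7.96, 7.87 and 8.43 against 3.89, 3.90 and 3.97, a log2 change of -4.17 (SE 0.13, adjusted p = 5.9e-08). Its gene lies within 5 Mb of Notch3, and the part of this place in the result was not tested. Cyp2e1, a cytochrome P450, read 5.02, 7.35 and 7.0 against 3.30, 3.32 and 3.29. Control 1 was low, and the log2 change of -3.15 had a wide error (SE 0.51). The knockout values of Ephx3 and Cyp2e1 were low and nearly equal and may be background, so these falls may be larger. Both are in a list of 29 genes of xenobiotic and lipid epoxide metabolism, of which 2 fell (4 without knockout 2 or knockout 3) and 1, Cyp27a1, rose by 1.07.

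Further genes of the naming rule were of mixed function. The anion exchanger Slc4a3, which vessels use to control pH, (-2.52), Mamdc2 (-2.61), Susd5 (-3.21), Adamtsl1, a relative of matrix proteases (-2.37), and Smim5 (-2.26) fell. Gabra2, a subunit of the GABA-A receptor, fell by 2.65, a call that was lost without control 3, knockout 1 or knockout 2. Hebp1, a heme-binding protein, read 7.63, 7.44 and 7.62 in controls and 10.17, 9.92 and 10.27 in knockouts, a rise of 2.55 (SE 0.12, adjusted p = 1.05e-06). Fez1, a transport adaptor, rose by 2.14, Glrp1 by 2.86, Zfp994 by 2.19, Hddc3 by 2.02, Abhd15 by 2.08 and the centriole protein Cep152 by 1.67. Lrmda and Ap1s3, an adaptor subunit of vesicle traffic, were at background in all controls and at least 4.82-fold and 3.85-fold higher in knockouts.

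Liph, a lipase, read 3.06, 2.77 and 4.78 in controls and 7.65, 5.64 and 6.37 in knockouts, at least 6.88-fold higher, with controls 1 and 2 at background and 1 of 3 controls measured. The immune receptor Havcr2 rose by 2.09 and the signalling adaptor Tifab by 1.79. Some calls rested on few arrays. With only the 6 cerebral arrays fitted, calls lost included the rises of Liph, Havcr2, Cd84, Ccl6 and Ccl9 and the fall of Cyp2e1. That fit also lost the calls of the 5 rises that follow. The calls of Susd3 (2.16), Ccdc88b (at background in all controls and at least 2.51-fold higher), Il1rl2 (1.64), Fkbp5 (1.98), a chaperone induced by glucocorticoids, and Pam (2.07), an enzyme that amidates peptides, were each lost when some single arrays were left out: control 1 for all 5, knockout 3 for all 5, control 2 for Susd3, Ccdc88b and Il1rl2, control 3 for Susd3, Fkbp5 and Pam, knockout 1 for Il1rl2 and knockout 2 for Fkbp5. For Eme2, an endonuclease subunit, and Tmem242 a second probe set did not follow the first. Eme2 rose by 3.67 by one and was at 0.05 by the other, which read a flat 3.67 to 3.82 over both groups. Tmem242 was at -2.69 by one and 0.74 by the other, which was itself called (adjusted p = 0.0176 by limma over all passing probe sets). Dimmer probe sets of further named genes were not called and gave smaller changes. Examples are -0.25 and -0.06 for Gabra2, 0.02 for Kcnma1, -0.02 for Palld, 0.01 for Slc6a9 and -0.40 for Myh11. Those of Gabra2, Kcnma1, Palld and Myh11 read 2.99 to 3.80, 3.24 to 3.36, 3.30 to 3.38 and 3.25 to 4.04 over both groups. So near to background they say little about a change. Probe sets of other reported falls were also not called and mostly gave smaller changes, among them -0.07, -0.17 and -0.32 for Dag1, -0.15 for Col4a5, -0.11 for Ndufs7 and -0.28 for Prelp. For Dag1 the -0.32 was no smaller than the change of its brightest probe set, but was not called. A second probe set of Nrip2 gave a larger change of -3.78.

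Of 32 immediate early and heat shock genes, which respond within minutes to stress, 6 fell and 1 rose, against 6.38% called over all tested genes, with a median of -0.22. Atf3, a stress-induced transcription factor, read 9.72, 9.16 and 9.69 in controls and 8.58, 8.27 and 8.41 in knockouts, a log2 change of -1.10 (SE 0.18). The heat shock genes Hspa1a and Hspa1b, which lie within 5 Mb of Notch3, fell (-1.29 and -0.99), and so did the nuclear receptor genes Nr4a1 and Nr4a2 (-1.42 and -0.91). Gadd45b, a stress response gene, rose by 0.77, a call kept without knockout 1 and lost without any other single array. The 6 falls became 1 without control 1, 3 without control 3, 2 without knockout 1 and 1 without knockout 3. Of 32 hypoxia genes limma called 0 (5 at an unadjusted p under 0.05), and of 64 genes of the mitochondrial respiratory chain 1, Ndufs7, fell, a call lost without control 1 or knockout 1.

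With Notch3 left out, 54 of 549 tested genes on chromosome 17, which carries it, were called (9.84%), and 35 of 403 on chromosome 14 (8.68%); on the other chromosomes the share ran from 4.08% to 7.84%. Over all 11716 tested genes, Notch3 included, the called changes of more than 4-fold were 19 up and 33 down. Chromosome 1 held 6 of them and chromosomes 6 and 9 held 4 each. Every other chromosome apart from 17 and 14 held 0 to 3. Chromosomes 17 and 14, with 549 and 403 tested genes, each held 8 of the genes changed more than 4-fold. On 17 these were Ccr6, Ephx3, Cacna1h, Slc22a2, Tmem242, Eme2, H2-DMa and Zfp994, and on 14 they included Ang, Adamdec1, Rpgrip1, Synpo2l, Lrmda, Ldb3 and Kcnma1. Within 20 Mb of Notch3 on either side 37 of 380 tested genes were called (9.74%), 20 higher and 17 lower, and within 5 Mb 7 of 173 (4.05%). The 7 include Ephx3, Fkbp5 and H2-DMa, and the 37 also include Cacna1h, Slc22a2, Eme2 and Zfp994. The part of position in these results was not tested.

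The same contrast in the cerebellar fragments was set beside the cerebral one for some members, picked with their values in view. The cerebral and cerebellar changes were -3.26 and -2.51 for Casq2, -1.70 and -1.78 for Myh11, -1.13 and -1.22 for Hey2, and 9.08 and 8.34 for Ang. Other large cerebral rises were smaller in cerebellar vessels and were not called there. Among these, the changes were 3.02 and 0.67 for Liph, 2.16 and 0.37 for Susd3, and 1.88 and 0.19 for Ccdc88b. The difference between the regions was not called for these genes either. The difference between the regions' effects was called for 5 genes, 0.0427% of those tested. Of these, Dmp1, a matrix protein of mineralised tissue, was also called in cerebral vessels. It read 7.5, 8.0 and 7.84 in cerebral controls and 5.47, 4.83 and 5.60 in cerebral knockouts, a log2 change of -2.48 (SE 0.19, adjusted p = 3.49e-05), and a second probe set gave -2.71. In cerebellar vessels its change was -0.15 (adjusted p = 0.778), and the difference between the regions was 2.33 (SE 0.27, adjusted p = 0.0172).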

How the data were processed

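Expression was measured on Affymetrix Mouse Genome 430 2.0 arrays, 1 per sample. The deposited values are log2 expression of each probe set, computed with GCRMA 2.32.0 per the submitters' processing notes; signal depth is not recorded, so 3 arrays per group limit the precision. GCRMA places unexpressed probe sets in a narrow low band, which shrinks their spread. Of 45101 probe sets, 34945 name 1 gene, 932 several and 9224 none, by the platform annotation with symbols updated by gene ID. Probe sets naming 1 gene were kept if 3 or more arrays of the 12 read above 3.27, which is the overall median; a gene is represented by its passing probe set with the highest mean, which left 11716 genes. Limma 3.58.1 in R 4.3.3 fitted 4 group means to the 12 arrays (8 residual degrees of freedom); a gene is called at a Benjamini-Hochberg adjusted p under 0.05 over all 11716. The fit was tested on simulated data.

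Named genes are Notch3, the 25 largest called rises and falls with non-overlapping groups (clone and predicted names counted, not named), and up to 5 members of each gene list, called ones first; any further member was picked with its values in view. The members and the 38 gene lists were chosen with earlier results of these data known. The lists cover Notch signalling, smooth muscle and pericyte function, vessel signalling, matrix, immune genes, markers of other brain and blood cells, stress, hypoxia, metabolism, sex and ribonucleases.

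The 3 arrays of a group are separate mice per the labels. Both regions were taken from the same mice per the series' design text; whether equal replicate numbers mark the same mouse is not stated, and the fit treats the 12 arrays as independent. Control and knockout cerebral arrays were compared by the correlation of deviations from the group means. It was 0.19, 0.18 and 0.01 for equal numbers 1 to 3, and from -0.21 to 0.07 for unequal numbers. This check did not settle whether equal numbers pair the samples, and it did not cover pairing between regions. The main fit left the replicate number out. Alternatives covered the filter, the summary of probe sets, the scaling, the variance model, the samples fitted, replicate and mouse blocks, Xist as a covariate and leaving out each array. Promoter windows come from RefSeq on GRCm38.p6, and 9498 of the tested genes matched.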

Additional observations from a re-analysis of the deposited data

Results flagged for a closer look

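The knockout effect differed between cerebellar and cerebral vessels, by limma's test of the difference itself, in 5 genes. For Dmp1 the cerebellar minus cerebral difference was 2.33, since it fell in cerebral vessels. For the other 4 the change lay in cerebellar vessels. The difference was 1.40 for Gabra6, a GABA-A receptor subunit of cerebellar granule cells, whose cerebral values were 3.79 to 3.88 in both groups. It was -1.23 for the matrix protein gene Dpt, -1.32 for the transcription factor gene Ebf2 and -0.74 for its fellow regulator Zfpm2, which were at or under the median of all values on every cerebral array. Dpt, Ebf2 and Zfpm2 therefore passed the filter only through cerebellar arrays, so their calls are not independent of that selection. Their low cerebral values also entered the shared estimate of the spread. The cause of the 5 differences was not tested.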

How the results depend on the processing

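The loss of Notch3 stayed called under every alternative run. Of 197 reported called genes, each kept its direction under every alternative that gave it a value, and 99 kept their call under all of those. The filter at the 75th percentile left 138 of the 197 to test. With only the 6 cerebral arrays 88 of the 197 lost their call. The 748 calls became 1415 with array weights, 310 with only the 6 cerebral arrays and 1127 with the replicate number as a block, and ran from 439 to 870 when single arrays were left out; their causes were not tested, beyond the fewer samples in some fits. Whether equal replicate numbers pair the samples was not settled. The 5 genes whose effect differed between regions became 2 with no filter and 0 when only probe sets above the 75th percentile were kept, where limma gave 330 genes an unadjusted p under 0.05. They ran from 1 to 20 when single arrays were left out. Only fitting the cerebral arrays could give no such test. Rgs5 and Atp2a2 were called only by the mean of their probe sets. Of 14 list counts of 5 or more, 8 moved by over 1.5 times with only the cerebral arrays, 5 with no filter and 0 under either centring or quantile normalization. Centring on the median of the tested genes was added after seeing the data. Genes near the median of all values had a compressed range, so small changes in them were not detectable.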
